A study of Mus musculus with 3 samples.

Results

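The forkhead family comprises transcription factors that bind DNA through a shared winged-helix domain and are grouped into lettered subfamilies. Its members were taken as every probe set annotated to exactly 1 gene symbol made of Fox, a letter from a to s and a number, without antisense transcripts. This gave 82 probe sets for 37 genes of 17 subfamilies, out of 34945 probe sets with 1 symbol for 18193 genes. The tissue was the genital tubercle, the outgrowth from which penis or clitoris forms, dissected from 3 mouse embryos of embryonic day 14 (Theiler stage 22) whose labels all give the sex as male. Mothers were of the FVB/N strain and fathers carried the SMAA/EYFP transgene, a fluorescent reporter that guided the dissection, so all 3 samples share this cross and none had a treatment. Each embryo was unpooled and gave 1 array, and the 3 arrays form 1 group. A single label separates them: the landmark is visible fingers for replicate 3 and indented footplate borders for replicates 1 and 2. No label says whether the embryos shared a litter, and spread between samples includes dissection, amplification and hybridisation.

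Forkhead factors divide their work by tissue layer. In the urogenital region, Foxa1 and Foxa2 act in epithelium of endodermal origin as pioneer factors, which open closed chromatin. Foxf1 and Foxf2 act in the mesenchyme beneath such epithelia and are known targets of hedgehog signals, whereas Foxo factors are held out of the nucleus by insulin and Akt signalling and Foxm1 drives genes of mitosis.

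Replicate 3 went against its sex label: Xist, the RNA that coats the inactive X, read 8.05, 118 and 61883 in replicates 1, 2 and 3, while the Y-linked Eif2s3y read 4384, 3738 and 37.9. The 3 genes measured from the Y chromosome passed background in replicates 1 and 2, and 0 of 3 did so in replicate 3. Liver markers, which belong to no part of the tubercle, were ordered replicate 1, 2 and 3 from high to low in their summed signal (113196, 52224 and 9171), and each of the 7 markers measured was highest in replicate 1 and lowest in replicate 3. Of them 4 passed the threshold described next in every sample. The summed skeletal muscle markers (24392, 7325 and 3136) had the same order, with 5 of 10 passing in every sample. Of the erythroid markers 7 of 8 passed. Their sums of 87538, 99957 and 82052 were mostly the globin Hbb-y, which was lowest in replicate 1 (59853, 86889 and 77722). Without it the sums (27685, 13067.5 and 4331) ran from replicate 1 down to replicate 3, with Slc4a1 the brightest (18738, 6337 and 1686). Marker by marker the order was not shared: 5, 5 and 2 of the 8 were higher in replicates 1, 2 and 3 than in the mean of the others. Markers of tubercle mesenchyme were above background in 10 of 12 cases and epithelial ones in 13 of 14 in every sample, as were 5 of 10 smooth muscle markers. A probe set counted as above background, or detected, in a sample when its signal exceeded the 95th percentile of 81 probe sets for olfactory, vomeronasal and bitter taste receptors on the same array, which was 135.8, 253.1 and 197 units. Signals are linear intensities as deposited. Probe sets differ in affinity, so levels are compared between samples for 1 probe set and never between genes. In whole tissue, fewer cells of a type and less RNA per cell cannot be told apart.

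Of the 37 forkhead genes, 22 (59.5%) were above background in 3 of 3 samples, 5 in 1 or 2 samples and 10 in none. Each gene is represented here by its brightest probe set on average, called its main one. Over all genes measured the share was 60.5%, so the forkhead share lay near the background of the array. By probe set, 44 of 82 (53.7%) were above background in 3 of 3 samples, against 48.0% of all probe sets. A further 11 passed in 1 or 2 samples and 27 in none. Every gene measured was above background in 3 of 3 samples in the Foxf (2 of 2 genes), Foxk (2 of 2), Foxo (3 of 3), Foxm (1 of 1) and Foxq (1 of 1) groups. None of the genes measured in the Foxb, Foxe, Foxh, Foxi and Foxs subfamilies was above background in any sample. Without replicate 3, the library that goes against its sex label, 22 genes were above background in both remaining samples. By probe set 46 of 82 were, beside 22472 of all 45037. The members just inside the threshold were Foxc1, Foxa2 and Foxp4, whose lowest ratio to background was 1.65, 1.66 and 1.66, and those just outside were Foxd3, Foxc2 and Foxa3, at 0.60, 0.58 and 0.56.

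**Figure D1:**
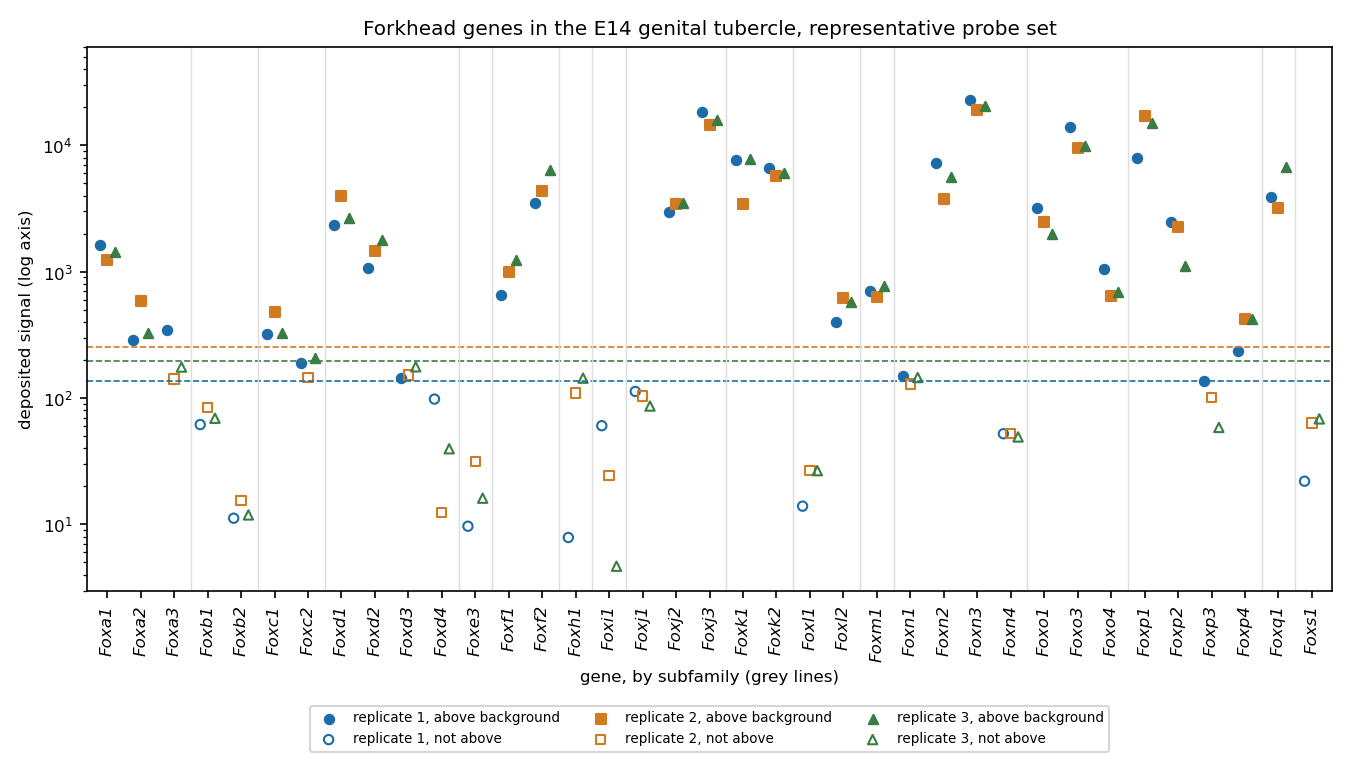
Deposited signal (log axis) of the representative probe set of each of the 37 forkhead genes in 3 samples, with subfamilies divided by grey lines; filled symbols are above the background of their own sample, open symbols are not, and dashed lines mark the backgrounds of 135.8, 253.1 and 197 units in replicates 1 (blue), 2 (orange) and 3 (green). By this threshold 22 genes have 3 filled symbols and 10 have 3 open ones, and Foxa3, Foxc2, Foxd3, Foxn1 and Foxp3 are mixed.

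Promoter sequence was not used to choose the members. RefSeq start sites of GRCm38.p6 were matched for 24 of 37 genes (29 start sites), and the 250 bases before each were read. The CpG ratio, observed over expected from base content, had a median of 0.73 over 19 start sites of forkhead genes above background in 3 of 3 samples and 0.57 over 10 of the others. For all measured genes the same medians were 0.73 and 0.32. A GC box (GGGCGG, both strands) occurred in 16 of 19 (84.2%) and 4 of 10 (40.0%) of them, beside 58.9% and 30.2% for all measured genes split the same way and 32.7% of all 32851 promoters. The forkhead core (TGTTTAC, both strands) occurred in 1 of 29, the Foxa1 promoter, beside 3.17% of all promoters. The Gli core (CCACCCA, both strands) was in 1 of 29, that of Foxi1, beside 8.11%, the CCAAT box (CCAAT) in 13 of 29 (44.8%) beside 33.8%, and the TATA box (TATAAA) in 3 of 29 (10.3%) beside 12.4%. Genes with several start sites count more than once, and a match of letters is a description, not a binding site. The following show the forkhead core in Foxa1, the GC boxes of Foxo3 and the CpG-poor window of Foxi1, which was above background in no sample; each runs 5′ to 3′ on the minus strand, with capitals for every match to the motifs named.
Foxa1, chr12:57546112-57546361: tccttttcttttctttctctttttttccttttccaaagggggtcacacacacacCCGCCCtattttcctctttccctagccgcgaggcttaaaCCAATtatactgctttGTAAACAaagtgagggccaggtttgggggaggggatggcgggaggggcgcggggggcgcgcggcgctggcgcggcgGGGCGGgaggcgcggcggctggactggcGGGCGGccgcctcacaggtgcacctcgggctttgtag
Foxo3, chr10:42276696-42276945: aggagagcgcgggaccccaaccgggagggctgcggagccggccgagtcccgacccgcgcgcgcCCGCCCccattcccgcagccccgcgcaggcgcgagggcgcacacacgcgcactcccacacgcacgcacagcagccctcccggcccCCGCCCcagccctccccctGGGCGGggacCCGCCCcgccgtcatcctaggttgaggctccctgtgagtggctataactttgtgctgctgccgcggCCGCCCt
Foxi1, chr11:34208090-34208339: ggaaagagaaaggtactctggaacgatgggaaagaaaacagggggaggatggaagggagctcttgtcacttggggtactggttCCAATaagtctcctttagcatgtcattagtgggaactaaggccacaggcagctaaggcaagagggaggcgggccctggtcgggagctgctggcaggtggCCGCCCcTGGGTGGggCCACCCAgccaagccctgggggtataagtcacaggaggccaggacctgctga
The Foxa1 match to the forkhead core lies 141 to 135 bases before the start site, on the opposite strand, and its CpG ratio is 0.89. Foxo3 has 5 GC boxes and a ratio of 0.88. Foxi1 has a ratio of 0.20, the lowest of the 29 windows. Single genes departed from the medians of their sets. Foxn3, above background in 3 of 3 samples, has a ratio of 0.30 and 0 GC boxes, and Foxd4, above it in none, has 0.74.

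Among the epithelial factors, Foxa1, whose promoter holds the forkhead core shown above, had signals of 1625, 1243 and 1440.3 in replicates 1, 2 and 3, a mean of 1436 ± 191 (SD, n = 3). Its SD on the log2 scale, after the samples were aligned on their common median, was 0.31, below the median of 0.41 over the 22 forkhead genes. Foxa2 read 288, 586 and 327. It was highest in replicate 2, 1.74-fold over replicate 1 and 1.63-fold over replicate 3. Replicate 2 is also the array with the highest background, and as ratios to background the Foxa2 signals were 2.12, 2.32 and 1.66. Foxa3, the family member best known from liver, read 344, 142 and 176 and was detected in replicate 1 alone. The level there exceeded that of replicate 2 at least 1.59-fold, and that of replicate 3 at least 1.85-fold. Replicate 1 is also the sample with the highest liver markers, among them albumin (Alb, 42766, 9061 and 1399.9). The part of liver RNA in the Foxa3 signal was not tested. Of the epithelial markers 14 of 14 were higher in replicate 1 than in the mean of the others (median log2 difference 0.54). So were 7958 of all 11006 genes above background in 3 of 3 samples, with a median of 0.26. Foxa1 was highest in replicate 1, as were 43.5% of all probe sets above background in 3 of 3 samples.

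Foxq1, a factor of epithelia and hair, read 3929, 3179 and 6728 on its main probe set and 763, 1148 and 1009 on another. The first put replicate 3 highest, 2.33-fold over replicate 2, and the second put replicate 2 highest with all samples within 1.29-fold. Foxn1, which acts in thymic epithelium and hair keratinocytes, read 150.1, 129.5 and 145 and was detected in replicate 1 alone, as was its other probe set (197, 121 and 93.1). Replicate 1 is the array with the lowest background, and the main Foxn1 probe set was nearly level between replicates 1 and 3. Foxi1, of ion-transporting epithelial cells, whose CpG-poor promoter is shown above, was above background in no sample (60.4, 24.4 and 4.67). Foxe3, a lens factor, likewise stayed below it (9.68, 31.3 and 16.1), and so did Foxj1, which drives motile cilia (113, 104 and 86.4). Of the 6 motile cilia markers measured, 1 was above background in 3 of 3 samples (Ccdc39, 605, 723 and 825).

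In the mesenchymal group, Foxf2 read 3467, 4359.6 and 6414 in replicates 1, 2 and 3 and Foxf1 read 659, 1000.5 and 1230.1. Both genes ran in the same order, lowest in replicate 1 and highest in replicate 3, where Foxf1 was 1.76-fold and Foxf2 1.74-fold over replicate 1. Each has a further probe set that was above background in no sample (10.9, 47.2 and 11.2 for Foxf1 and 23.6, 13.2 and 79.0 for Foxf2). Foxl1, the third mesenchymal factor known as a hedgehog target, from gut, was not above background (13.9, 26.6 and 26.6). Of the hedgehog genes themselves 11 of 11 measured were detected in every sample. Against the mean of the others, 8 of the 11 were higher in replicate 1, with a median log2 difference of 0.38. So were 7958 of all 11006 genes above background in 3 of 3 samples, with a median of 0.26. Both Foxf genes were lowest in replicate 1. Shh, Gli1 and Hhip, named for their roles after their values were seen, stand here beside the brightest, Ptch1. The ligand gene Shh read 12643, 16367 and 12521. The receptor gene Ptch1, a direct target, read 26712, 39066 and 37801, lowest in replicate 1. Of the other direct targets, Gli1 read 551, 974 and 726 and was highest in replicate 2, and Hhip read 365, 261 and 311 and was highest in replicate 1.

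Foxd1, known from the stroma of the developing kidney, read 2342, 3979.6 and 2669 and was highest in replicate 2, 1.45-fold over replicate 1. Foxd2, expressed in mesenchyme of kidney and somites, read 1063, 1451 and 1798 and was highest in replicate 3, 1.59-fold over replicate 1. Its second probe set was at 16.0, 42.0 and 61.6, above background in no sample. Of the 4 kidney markers measured, Six2 was above background in 3 of 3 samples (1016, 1006 and 1059), and Pax8, Wt1 and Cdh16 were above it in none. Foxd3, a factor of neural crest, read 145, 153 and 177 and passed in replicate 1, the array with the lowest background, although its signal was highest in replicate 3. Foxd4, of the early neural plate, was above background in no sample (98.2, 12.5 and 39.7).

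Foxc1 and Foxc2 pattern mesoderm, vessels and the eye. Foxc1 read 322, 482 and 326, with a mean of 377 ± 91.6 (SD, n = 3), and differed by at most 1.34-fold between samples. A second Foxc1 probe set stayed below background (109.9, 233 and 113). Foxc2 read 191, 146 and 209 and was detected in replicates 1 and 3. Foxs1, a factor of vessel-associated cells, was above it in no sample (22.0, 63.5 and 68.4), while 8 of 10 endothelial markers passed in 3 of 3 samples.

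Several of these genes are neighbours in the mouse genome, as the RefSeq annotation of GRCm38.p6 orders its protein-coding genes. Foxq1, Foxf2 and Foxc1 follow one another with 0 protein-coding genes between them, and every sample held signal above background for each. Foxf1, Foxc2 and Foxl1 form a second group, with Mthfsd between the first pair and 0 between the second, and they were above background in 3, 2 and 0 samples. Foxd2 and Foxe3 are adjacent too, and were above background in 3 and 0 samples.

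Foxo factors respond to nutrient and insulin signals, and each of the 3 genes measured was highest in replicate 1. Foxo3, with the GC-box-rich promoter shown above, read 13964, 9528 and 9868, and replicate 1 was 1.72-fold over replicate 2 and 1.50-fold over replicate 3. Foxo1 read 3199, 2471 and 1977 and Foxo4 1056, 637 and 691, where replicate 1 was 1.94-fold over replicate 2. Genes in general leaned that way, since the 11006 genes above background in 3 of 3 samples had a median log2 difference of 0.26 between replicate 1 and the mean of the others. On the further probe sets Foxo3 kept replicate 1 highest (4581, 3059 and 4160.1), apart from 1 that was detected in no sample. Of the other Foxo1 probe sets, 1 did so (2719, 1617 and 2227), 1 was nearly level (1201, 1536 and 1390.5) and 1 was above background in no sample. The second Foxo4 probe set read 31.4, 359 and 40.2 and was detected in replicate 2 alone, at least 2.26-fold over replicate 1, the reverse of the first. Foxo4 is X-linked, and its main signal in replicate 3, the library with high Xist, lay between those of the other samples.

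Of the listed regulators of Foxo activity 12 of 13 were detected in every sample. They include the 14-3-3 gene Ywhaz (43425, 35412 and 46579.6), which binds phosphorylated Foxo proteins, the 14-3-3 gene Ywhae (25626, 20679.9 and 23021) and the adaptor gene Irs1 (22722, 18479 and 18901). The exception was Irs2 (95.9, 745 and 343), above background in replicates 2 and 3. Among known Foxo targets 11 of 13 passed in 3 of 3 samples, and 11 of 13 were higher in replicate 1 than in the mean of the others, with a median log2 difference of 0.23 that is close to that of genes in general. They include catalase (Cat, 25992, 24659 and 19472), the cyclin gene Ccng2 (13344, 12947 and 13814) and the redox regulator Txnip (17883, 10591 and 11182). Cdkn1b (133, 1042 and 185) passed in replicate 2 and Gadd45a (201, 41.7 and 112) in replicate 1.

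Foxm1, the mitotic factor, read 704, 629 and 772 on its main probe set, a mean of 702 ± 71.7 (SD, n = 3). Those values differed by at most 1.35-fold. A second probe set read 371, 901 and 265 and put replicate 2 highest, 3.09-fold over replicate 3, and the third, of a type that can bind other transcripts (suffix x_at), read 425, 314 and 307 and put replicate 1 highest. Mitotic genes known as Foxm1 targets were detected in every sample in 14 of 14 cases, with Cdc20 at 35277, 33604 and 36849, Cenpa at 15885, 10431 and 15356 and Cdk1 at 12307, 8950.4 and 9566. Replicate 1 exceeded the mean of replicates 2 and 3 for 14 of 14, with a median log2 difference of 0.46. Replicate 2 had a median difference of -0.46. Over all 11006 genes above background in 3 of 3 samples, replicate 1 did so for 7958, and these medians were 0.26 and -0.21. The main Foxm1 probe set was lowest in replicate 2, as were 42.0% of all probe sets above background in 3 of 3 samples.

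The Foxp genes encode transcriptional repressors that act as dimers in organ development. Foxp1 was detected in every sample by 7 of its 8 probe sets, and its main one read 7937, 17174 and 14909.9, lowest in replicate 1 by 1.85-fold against replicate 2. Of these 7 probe sets 6 were lowest in replicate 1, and the exception read 5549, 4925 and 3504, with replicate 1 highest. Foxp2, known from brain and lung development, read 2476, 2272 and 1116 on its main probe set, 2.36-fold higher in replicate 1 than in replicate 3. Another Foxp2 probe set read 656, 2409 and 931 and was 3.14-fold higher in replicate 2 than in replicate 1. Foxp4 read 235, 421 and 426 on its main probe set, just inside the threshold. Another read 196, 189 and 173 and was detected in replicate 1 alone. The last (24.2, 81.3 and 17.9) was above background in no sample. Foxp3, the X-linked factor of regulatory T cells, read 138, 101 and 58.5 and was detected in replicate 1 by a narrow margin, while 0 of 4 T cell markers were above it in any sample. Listed corepressors that bind Foxp proteins were above background in 6 of 6 cases, among them Ctbp1 (38874, 41393 and 39175) and Hdac2 (33875, 35335 and 32501).

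The remaining genes above background were the broadly expressed Foxj, Foxk and Foxn members and Foxl2. Foxn3, a repressor linked to the response to DNA damage, read 22768, 18885 and 20409 and Foxj3, which acts in muscle and germ cells, 18275, 14447 and 15804. Foxj2 had the smallest spread of the 22 genes, with 2949, 3439 and 3526 and an SD of 0.10 on the aligned log2 scale. Foxk1, a repressor of autophagy genes, had the largest, at 0.78, from signals of 7667, 3418 and 7765. Replicate 2 was the low sample, 2.63-fold below replicate 1 and 2.50-fold below replicate 3. Both further Foxk1 probe sets were above background in no sample. Its relative Foxk2 read 6619, 5737 and 6023 and was lowest in the same sample. Foxn2 read 7289.8, 3756 and 5609.7, again lowest in replicate 2, 2.27-fold below replicate 1. Its other probe set (3.65, 283 and 33.0) was detected in replicate 2 alone. Foxn4, of retina and spinal cord, was above background in no sample (52.2, 52.5 and 49.2), as were Foxb1 (61.7, 83.8 and 69.2) and Foxb2 (11.2, 15.5 and 11.9), which act in the nervous system, and Foxh1 (7.88, 109.5 and 144), the partner of Smad proteins in Nodal signalling. The Smad genes listed as its partners passed in 3 of 3 cases, and of 6 forebrain markers 0 passed in 3 of 3 samples. Foxl2, known from ovary and pituitary, read 397, 621 and 571 on one probe set and 83.0, 94.3 and 127, not above background, on the other. Of 6 gonad markers measured 2 passed in 3 of 3 samples, Fst (1418, 1389.7 and 2389.6) and Star (306, 450.2 and 289).

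**Figure D2:**
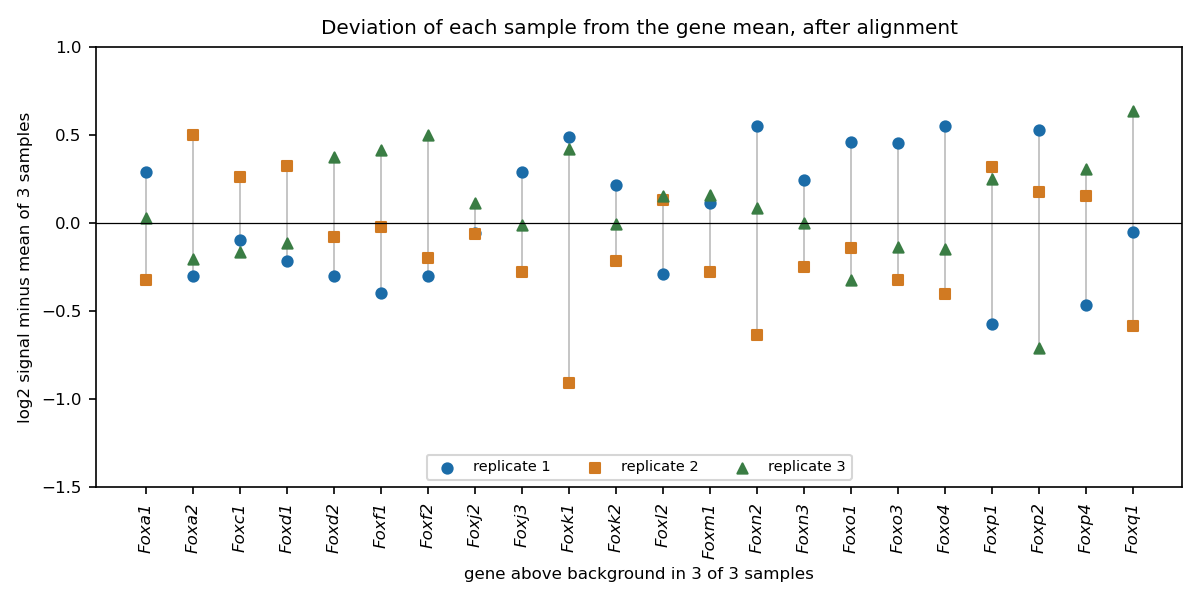
Log2 signal of each sample minus the mean of the 3 samples, after alignment, for the 22 forkhead genes above background in 3 of 3 samples (representative probe set; grey lines join the lowest and the highest sample). The widest gap is in Foxk1, where replicate 2 is low, and the narrowest in Foxj2, where the points of replicates 1 and 2 coincide; replicate 1 is the highest sample in Foxo1, Foxo3 and Foxo4 and the lowest in Foxf1 and Foxf2.

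The spread between samples was described for the 22 genes and set beside that of the array. Their median SD of aligned log2 signals was 0.41, against 0.33 for all 11006 genes above background in 3 of 3 samples, and 10 of 22 lay below the median of all such probe sets, 0.36. Replicate 1 was highest for 10 genes, replicate 2 for 4 and replicate 3 for 8. Lowest were 8 genes in replicate 1, 11 in replicate 2 and 3 in replicate 3. Against the mean of the others, 11, 7 and 13 of the 22 were higher in replicates 1, 2 and 3. The same counts were 7958, 3511 and 5377 of all 11006 genes. The array shares that follow are by probe set and not by gene. Over all 44 forkhead probe sets detected in every sample, replicate 1 was highest in 14 (43.5% of all such probe sets on the array), replicate 2 in 18 (29.0%) and replicate 3 in 12 (27.5%). Replicate 1 was lowest in 21 (31.7%), replicate 2 in 16 (42.0%) and replicate 3 in 7 (26.3%). Forkhead probe sets thus put replicate 1 lowest at a larger share, and highest at a smaller share, than the array did, a difference that was not tested. The share with replicate 1 highest lay closer to that of the array in other settings. It was 29.5% against 32.3% without alignment and 36.4% against 40.9% with quantile normalization. Replicate 1 was lowest in 52.3% against 40.2% and in 45.5% against 29.9%, in the same order of settings. Foxp1 gave 6 of the 21 in which replicate 1 was lowest, and without it, a choice made after seeing the data, replicate 1 was lowest in 15 of 37 and highest in 13 of 37. Between pairs of samples, those detected in both and differing by over 2-fold numbered 9 of 46 for replicates 1 and 2 (20.4% of all probe sets), 3 of 45 for replicates 1 and 3 (13.6%) and 7 of 44 for replicates 2 and 3 (10.5%). Of the 9 in the first pair, 7 were higher in replicate 2, as were 10 of 11 without alignment and 6 of 9 with quantile normalization. In the last pair 4 of 7 were higher in replicate 3, against 3 of 7 without alignment and 3 of 6 with quantile normalization, so that pair has no settled direction. In the aligned values none of the 7 higher in replicate 2 than in replicate 1 was the main probe set of its gene. They belong to Foxj2, Foxm1, Foxn3, Foxp1 and Foxp2. The remaining ones, lower in replicate 2, were the main probe sets of Foxk1 and Foxn2.

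Probe sets of one gene often ranked the samples differently. Among the 10 genes that several probe sets detected in every sample, 1 (Foxo3) had the same highest sample on every probe set, against 31.5% of 4749 such genes on the array. Counted by pairs of probe sets of a gene, 15 of 46 pairs (32.6%) shared the highest sample, against 42.1% of all pairs, and 24 of 46 (52.2%) shared the lowest, against 43.9%. Foxp1 alone gave 21 of these pairs. Without Foxp1, a choice made after seeing the data, 5 of 25 shared the highest sample and 9 of 25 (36.0%) the lowest, which puts the latter below the share of the array instead of above it. Foxn3 shows the contrast: its main probe set was highest in replicate 1, and others read 3090.4, 8507 and 4531 and 284, 1153 and 421, up to 3.47-fold higher in replicate 2. Foxk2 read 828, 649 and 1627 on a probe set that put replicate 3 highest, 2.76-fold over replicate 2, and 301, 443 and 365 on one that put replicate 2 highest. For Foxj2 the second probe set read 334, 1485 and 964, 3.80-fold higher in replicate 2 than in replicate 1, whereas the main one had the smallest spread of all. Of the 21 forkhead genes with several probe sets, 16 (76.2%) were detected in every sample by only some of these, against 48.3% of 9010 such genes overall. Which transcript ends or isoforms the probe sets read was not tested.

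**Figure D3:**
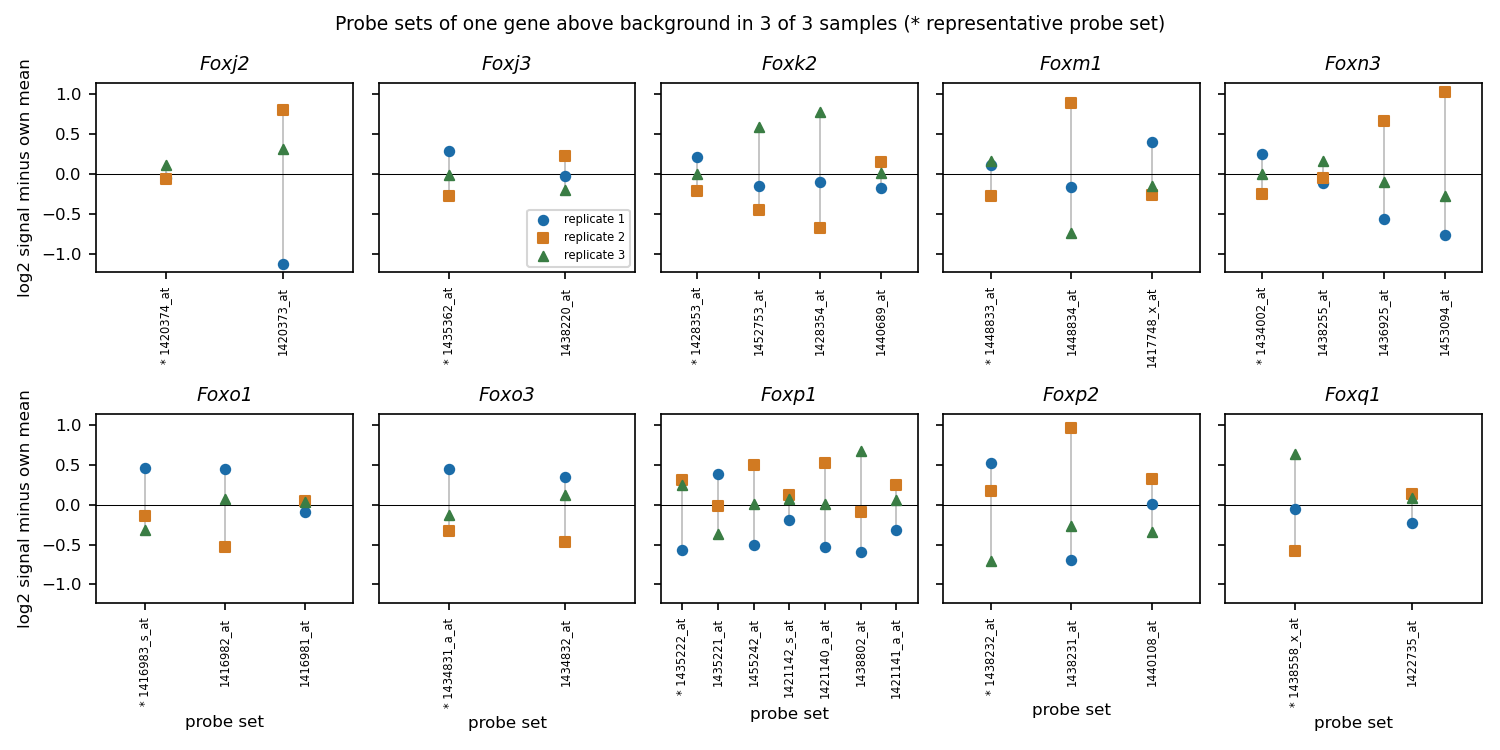
Aligned log2 signal of each sample minus the mean of the 3 samples, for every probe set above background in 3 of 3 samples of the 10 forkhead genes with several such probe sets; an asterisk marks the main probe set. Sample order is shared by both Foxo3 probe sets for the highest and lowest sample, and differs between probe sets of Foxn3, Foxk2, Foxm1 and Foxp2.

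The landmark, the label that sets replicate 3 apart, was tested with limma across the 29065 probe sets detected in 1 sample or more, with two-sided p-values and Benjamini-Hochberg adjustment. No probe set was called at an adjusted p under 0.05 (0.0% of those tested), and none of the 55 forkhead probe sets in the fit had an unadjusted p under 0.05 either, against 604 (2.08%) overall. The differences that follow are replicate 3 minus the mean of replicates 1 and 2 on the log2 scale, with limma's SE. On main probe sets Foxp2 had the lowest value of the 22 genes, at -1.06 ± 0.62, and Foxq1 the highest, at 0.96 ± 0.64. Foxf2 (0.75 ± 0.60), Foxk1 (0.63 ± 0.85) and Foxf1 (0.63 ± 0.62) followed. Further probe sets detected in every sample gave -0.41 and -0.51 for Foxp2 and 0.13 for Foxq1. The adjusted p from limma was 0.99995 for each of these genes. Of the 22 genes 13 had a positive and 9 a negative difference, with a median of 0.09, and the SEs ran from 0.60 to 0.85. The contrast has 1 residual degree of freedom, and in data simulated with the variance of these arrays it called 0 of 66 probe sets changed by 6 on the log2 scale, so a missing call does not show that levels were equal. Landmark, the sex-linked signals and any other feature of replicate 3 cannot be told apart.

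**Figure D4:**
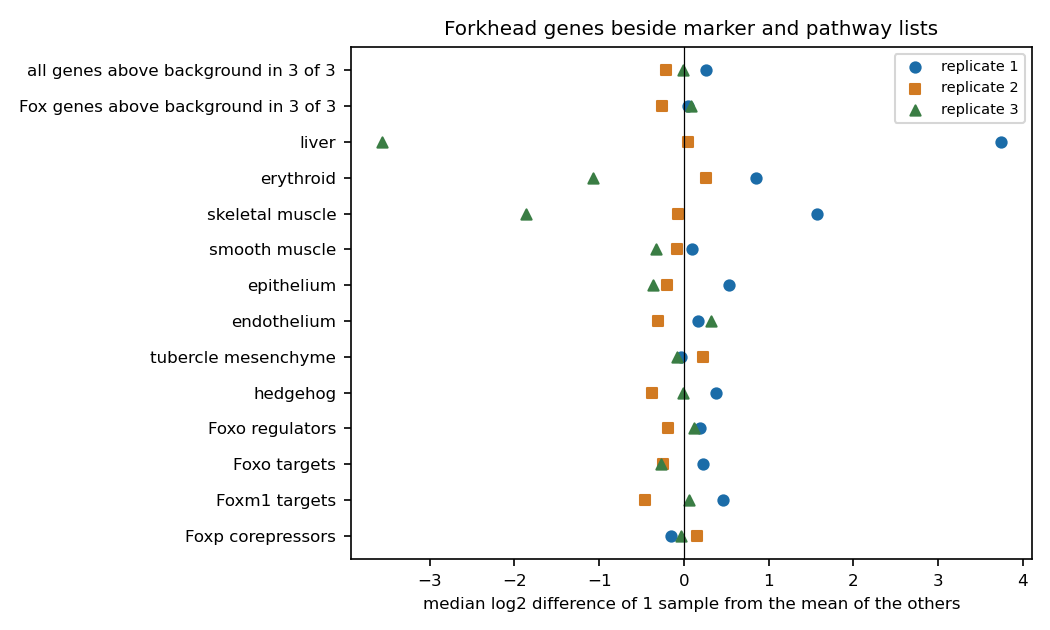
Median log2 difference between each sample and the mean of the remaining samples, for all genes and forkhead genes above background in 3 of 3 samples and for all measured genes of marker and pathway lists, including those below background. Liver markers span 3.74 (replicate 1) to -3.57 (replicate 3), while forkhead genes stay at 0.05, -0.25 and 0.09 in replicates 1, 2 and 3.

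Set against these lists, the 22 forkhead genes had median differences of 0.05, -0.25 and 0.09 for replicates 1, 2 and 3, beside 0.26, -0.21 and -0.01 for all genes above background in 3 of 3 samples. Liver markers (3.74 and -3.57) and skeletal muscle markers (1.57 and -1.86) had larger median differences in replicates 1 and 3, but smaller ones in replicate 2 (0.04 and -0.07). Their part in single forkhead signals other than Foxa3 was not tested either.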

How the data were processed

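RNA of 3 unpooled embryonic samples was amplified in 2 rounds and hybridised to 1 array each, per the labels. The deposited table gives 1 linear intensity per probe set, made by the authors with GCOS, per the submitters' processing notes; the sources used here give no version, algorithm or settings. A 2% trimmed mean of 1500.0 in every sample shows global scaling before deposit, and scanner files were not used. Of 45101 probe sets 64 controls were set aside. Symbols came from the platform annotation and were checked through Entrez identifiers in the RefSeq table, where 34741 of 34945 matched and 0 changed. Signals under 1 were set to 1, log2 transformed and aligned on the median of the 21612 probe sets above background in 3 of 3 samples, which moved replicates 1, 2 and 3 by 0.10, -0.12 and 0.02. Printed signals are as deposited, whereas folds and log2 spreads were taken from aligned values. A fold against a sample below background is a lower bound, taken against that background. The landmark fit used limma 3.58.1 in R 4.3.3 and was tested on simulated data, where 0 of 67, 0 of 67 and 0 of 66 probe sets changed by 1, 3 and 6 on the log2 scale were called, although 13, 59 and 65 had an unadjusted p under 0.05. Arrays give no counts, and the number of arrays, 3, limits the precision. Identical values in a pair of samples numbered 10 or fewer. The p-values and SEs of the landmark fit rest on the spread between replicates 1 and 2 and on the variance that limma shares across probe sets. They hold no measure of the spread of replicate 3, which is assumed to vary like the others. Members and lists were chosen with earlier results of these data known; every member gene is named, and of each list at most the 3 brightest genes and those not detected in every sample, besides Shh, Gli1 and Hhip. Alternatives were the background percentile, the choice of probe set, alignment, floor, filter, variance model and leaving out each replicate.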

Additional observations from a re-analysis of the deposited data

Results flagged for a closer look

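Probe sets annotated to a forkhead gene together with another gene lay outside the rule for members, and 2 such probe sets carried signal above background in 3 of 3 samples. The probe set shared by Gm38485 and Foxo3 read 460.3, 510.1 and 312 in replicates 1, 2 and 3, with a mean of 427.5. Another, shared by Tex52, Pebp1 and Foxm1, read 687, 563 and 539.9, with a mean of 597. Which of the genes gave these signals was not tested. Groups of 3 samples are too small for the test of a single outlying sample, so none was made.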

How the results depend on the processing

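The number of forkhead genes above background in 3 of 3 samples was 22 with background at the 90th or 99th percentile. It was also 22 when any probe set of a gene sufficed, but 6 when every probe set of a gene had to pass. No share over all genes stands beside these counts, so the 6 cannot be read as particular to forkhead genes. Leaving out each replicate in turn gave 22 to 23 genes and 44 to 46 probe sets, beside 22472 to 23034 of all 45037 probe sets. The median SD of the 22 genes was 0.39 without alignment, 0.33 with quantile normalization, 0.33 over the mean of each gene's probe sets and 0.28 to 0.38 when a replicate was left out. For the landmark, limma called 0 probe sets in the array as a whole except 1 (Xist, adjusted p 0.018) when the fit held only those detected in every sample, and 86 when arrays were aligned by their overall median, an alternative chosen after seeing the data; the cause was not tested. None of these calls was a forkhead probe set in any setting. At unadjusted p under 0.05, 1 forkhead probe set passed with quantile normalization and 1 with all probe sets fitted. The sign of single landmark differences turned in 4 of 154 recomputed values, for Foxn3 in 3 settings and Foxa1 in 1, and no call was made in any. Forkhead probe sets over 2-fold apart numbered 11 without alignment and 9 with quantile normalization for replicates 1 and 2, 3 and 2 for replicates 1 and 3, and 7 and 6 for replicates 2 and 3. Pairs of probe sets of one gene that shared the highest and the lowest sample numbered 5 and 9 of 25 without Foxp1, chosen after seeing the data, against 15 and 24 of 46; Foxp1 gave the other 21 pairs. Leaving a replicate out of the landmark fit was not run, since it leaves no residual degree of freedom or no contrast. No paired analysis was possible because the samples form 1 group. Probe sets within about 2-fold of background, such as those of Foxc1, Foxa2 and Foxp4, are the least certain.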

Other observations

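A transcript on the strand opposite Foxl2, Foxl2os, is measured by 1 probe set that the rule for members leaves out. It read 11.0, 31.0 and 324 in replicates 1, 2 and 3, detected in replicate 3 only, whereas Foxl2 itself read 397, 621 and 571.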
